A study of Homo sapiens with 4 samples.

Results

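ATF4 and 9 genes that cells switch on under stress through it were examined in SKOV3 cells, a long-established line from a human ovarian carcinoma, with and without rhSTIP1. The members were ATF4, DDIT3 (the gene of CHOP), CHAC1, DDIT4, SESN2, TRIB3, PPP1R15A, ASNS, CEBPB and STC2. Every probe set annotated to 1 of these 10 genes alone was taken, which gave 15 of the 54613 probe sets of the array other than controls, and no probe set was shared with another gene. The members were chosen by their differences between the rhSTIP1 and control arrays, CHAC1, DDIT3, DDIT4 and SESN2 being lower with rhSTIP1 while TRIB3 was not. Their values in this comparison are given as a description without a test. All 10 genes were bright enough to enter the model fitted over 12296 genes.

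A pair of groups, each of 2 Affymetrix expression arrays, was compared, control cells left without rhSTIP1 and cells treated with it. The name was read as recombinant human STIP1, a cochaperone of HSP70 and HSP90 that cells also secrete. Dose, duration and the passage or clone of the line are not given in the labels. The labels also do not state whether replicate arrays had cultures of their own, so any p-value measures only the spread between these arrays, which may be technical. Values are MAS5 signals, linear intensities of a probe set that the authors scaled to a common target on each array, and differences are on the scale of log2(signal + 16), rhSTIP1 minus control, with the standard error of the model after ±. The arrays measured RNA of whole cultures, so fewer cells with a transcript and less of it per cell cannot be told apart.

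The integrated stress response begins with kinases that sense amino acid shortage, unfolded protein in the endoplasmic reticulum, heme shortage or viral RNA and phosphorylate the translation factor eIF2. General translation then slows while that of ATF4 rises, and ATF4 activates genes of amino acid uptake and synthesis together with a stress branch that includes CHOP, CHAC1, TRIB3 and SESN2. PPP1R15A closes the loop by bringing a phosphatase to eIF2. ATF4 and CHOP pair with C/EBP proteins and bind composite C/EBP-ATF elements in promoters.

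The promoters of 6 members are shown. CHAC1 and ASNS hold the core of the C/EBP-ATF element, PPP1R15A and DDIT3 hold a match to another element searched, and DDIT4 and SESN2 are members that were lower with rhSTIP1 and held none of the letters searched. Each is the stretch of 250 bases before the RefSeq transcription start of the first entry of the gene, on GRCh38.p14, written 5′ to 3′ on the strand of the gene, with matches in capitals. The lines give CHAC1 (chr15:40953221-40953470, plus strand), ASNS (chr7:97872409-97872658, minus), DDIT3 (chr12:57520515-57520764, minus), PPP1R15A (chr19:48872171-48872420, plus), DDIT4 (chr10:72273674-72273923, plus) and SESN2 (chr1:28259268-28259517, plus).
CHAC1: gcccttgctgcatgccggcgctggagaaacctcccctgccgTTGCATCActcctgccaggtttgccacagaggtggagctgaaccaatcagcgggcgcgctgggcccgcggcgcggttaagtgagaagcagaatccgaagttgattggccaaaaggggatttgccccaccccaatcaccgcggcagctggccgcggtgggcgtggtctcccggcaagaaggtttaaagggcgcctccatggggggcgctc
ASNS: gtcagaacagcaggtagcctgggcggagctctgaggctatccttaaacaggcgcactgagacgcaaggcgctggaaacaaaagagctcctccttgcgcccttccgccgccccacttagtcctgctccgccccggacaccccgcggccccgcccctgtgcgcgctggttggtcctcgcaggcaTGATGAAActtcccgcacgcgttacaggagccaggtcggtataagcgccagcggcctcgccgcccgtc
DDIT3: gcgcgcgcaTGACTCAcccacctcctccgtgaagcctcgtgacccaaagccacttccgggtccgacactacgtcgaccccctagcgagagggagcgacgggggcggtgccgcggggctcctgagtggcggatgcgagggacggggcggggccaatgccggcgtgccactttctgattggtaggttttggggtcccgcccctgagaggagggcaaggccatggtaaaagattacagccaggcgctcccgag
PPP1R15A: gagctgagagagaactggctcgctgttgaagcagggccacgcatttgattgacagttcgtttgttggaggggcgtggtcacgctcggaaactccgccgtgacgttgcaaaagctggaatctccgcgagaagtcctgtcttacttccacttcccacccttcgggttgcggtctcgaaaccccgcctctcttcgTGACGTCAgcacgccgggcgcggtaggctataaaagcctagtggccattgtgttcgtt
DDIT4: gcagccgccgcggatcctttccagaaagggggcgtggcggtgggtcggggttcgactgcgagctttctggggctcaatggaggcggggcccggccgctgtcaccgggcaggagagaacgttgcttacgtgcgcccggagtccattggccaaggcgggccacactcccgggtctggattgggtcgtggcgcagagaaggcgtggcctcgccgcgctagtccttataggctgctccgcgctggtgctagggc
SESN2: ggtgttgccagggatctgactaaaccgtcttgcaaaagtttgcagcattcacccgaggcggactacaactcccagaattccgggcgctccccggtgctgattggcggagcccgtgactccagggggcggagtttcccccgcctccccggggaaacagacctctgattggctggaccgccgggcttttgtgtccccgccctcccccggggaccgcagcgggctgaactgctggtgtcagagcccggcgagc

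A search of both strands for TGATGNAA, the core of the C/EBP-ATF element, matched 2 of the 10 members, CHAC1 and ASNS. In CHAC1 it stands on the opposite strand and reads TTGCATCA on the strand shown, beginning 209 bases before the start, and in ASNS it reads TGATGAAA, beginning 68 bases before the start. Counted by gene in the same way, the core was found in 3.89% of the 27305 genes with a promoter entry, and in 3.14% of the 35116 entries. The cyclic AMP response element TGACGTCA, a site of CREB and ATF proteins, was found only in PPP1R15A among the members, 58 bases before the start, and in 2.03% of all genes. The AP-1 element TGAGTCA, a site of FOS and JUN proteins, was found only in DDIT3, on the opposite strand, and in 5.19% of all genes. None of the matches in the members overlapped another. The other promoters of members held none of the 3 motifs, which says only that these letters are not in that window.

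**Figure D1:**
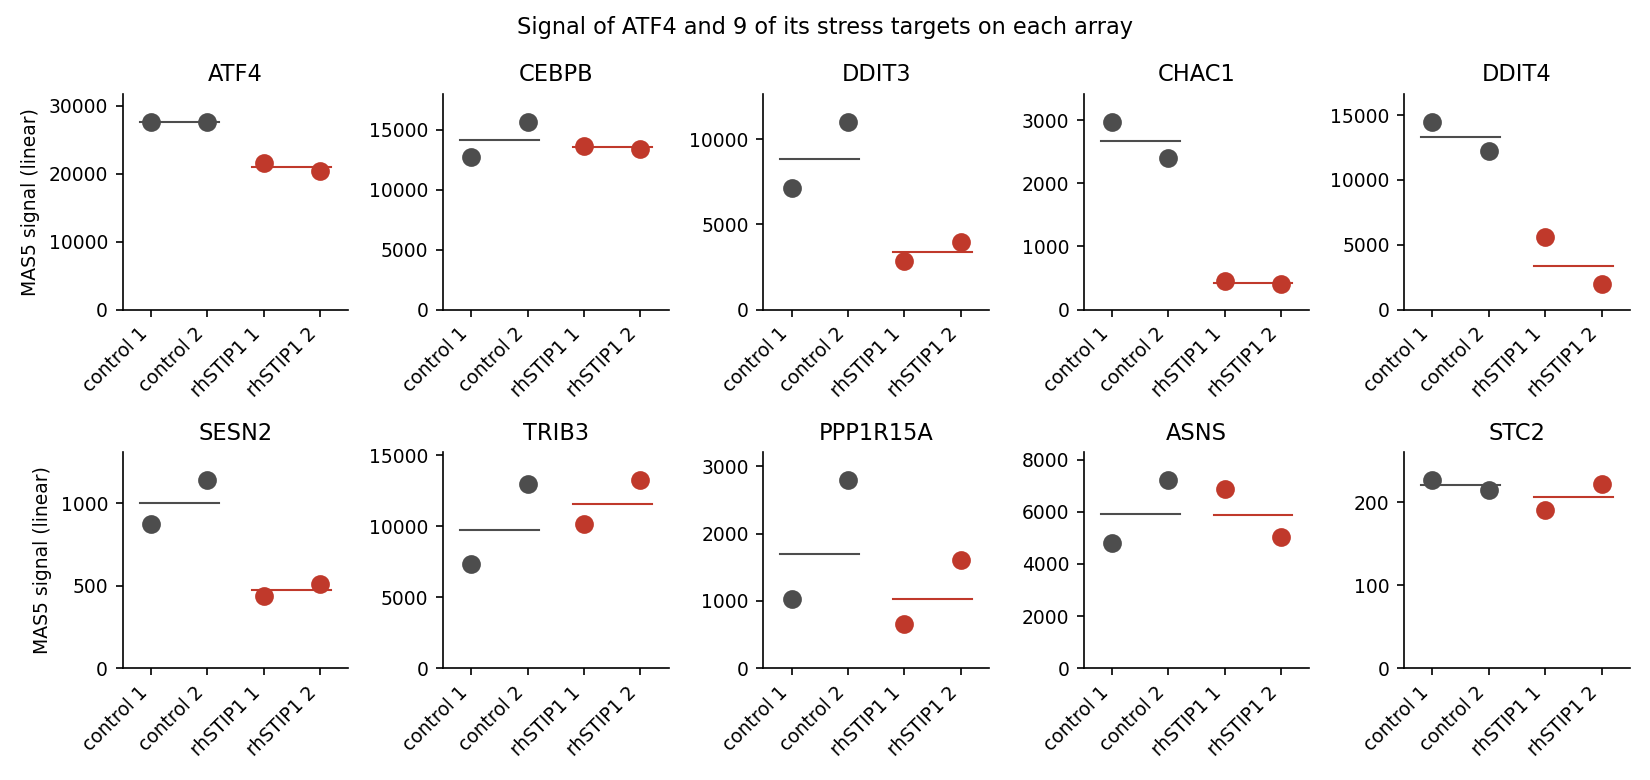
Linear MAS5 signal of the probe set used for each of the 10 genes on the 2 control arrays (grey) and the 2 rhSTIP1 arrays (red), with a line at the group's mean on the log2(signal + 16) scale; every axis starts at 0 and has its own range. CHAC1, DDIT3, DDIT4, SESN2 and, by a small step, ATF4 are below both controls on both rhSTIP1 arrays, and the groups of the other 5 genes overlap.

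ATF4, the transcription factor that heads the branch, read 27601.2 and 27631.7 on the control arrays against 21496.3 and 20395.7 on the rhSTIP1 arrays. The controls were nearly equal, both rhSTIP1 arrays lay below them, and the difference was −0.40 ± 0.14, or 1.32-fold. ATF4 is controlled largely at its translation, which arrays do not measure. CEBPB, the gene of a C/EBP protein that pairs with ATF4 and CHOP, showed no separation. Its signals were 12743.2 and 15674.4 on the control arrays against 13687.8 and 13374.8 on the rhSTIP1 arrays, so that both treated arrays fell between the controls, with a difference of −0.06 ± 0.18.

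CHAC1, a cytosolic enzyme that breaks down glutathione, had the lowest difference of all 12296 genes. Its signals were 2975.46 and 2402.63 on the control arrays against 445.846 and 410.75 on the rhSTIP1 arrays. The arrays of each group lay close together, and the lower control was still 5.39-fold above the higher rhSTIP1 array. The difference was −2.60 ± 0.24, or 6.06-fold.

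DDIT3, the CHOP transcription factor that promotes cell death when stress persists, read 7120.27 and 11024 on the control arrays against 2864.8 and 3961.85 on the rhSTIP1 arrays. The controls differed by 1.55-fold, while the lower control was 1.797-fold above the higher rhSTIP1 array. The difference was −1.39 ± 0.28, or 2.62-fold, and stood 58th from the lowest. In contrast to CHAC1, both groups were higher on their array 2 than on their array 1.

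DDIT4 and SESN2 act on mTORC1, the kinase complex that couples amino acid supply to growth. DDIT4 restrains it through the TSC complex and SESN2 through the GATOR complexes. DDIT4 read 14491.4 and 12259.5 on the control arrays against 5610.35 and 1986.17 on the rhSTIP1 arrays. Both treated arrays were lower, but they differed from each other by 2.82-fold, more than the 1.18-fold between controls. The difference was −1.99 ± 0.43, or 3.98-fold, the 5th lowest of all genes. It was −1.25 without rhSTIP1 array 2 and −2.74 without rhSTIP1 array 1. On rhSTIP1 array 2, the lower of the treated arrays for DDIT4, the ACTB control probe sets gave 8.795 for signal at the 3′ end over that at the 5′ end, a ratio that rises as RNA breaks down, against 2.453 to 2.736 on the other 3 arrays, while that of GAPDH lay between 0.987 and 1.315 on all 4. That array belongs to the treated group for every gene. The part of RNA quality in the size of the DDIT4 value, or of any other difference given here, was not tested.

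SESN2 was read by a pair of probe sets, and for each of them both rhSTIP1 arrays were below both controls. The brighter gave 874.469 and 1139.22 on the control arrays against 438.437 and 510.422 on the rhSTIP1 arrays, a difference of −1.05 ± 0.26 or 2.07-fold. The dimmer gave 297.056 and 453.484 against 159.987 and 244.047, a difference of −0.84. SESN2 stood 170th from the lowest of the 12296 genes and had the smallest difference of the 4 members that were separated by at least 1.5-fold. ATF4, the next member without overlap, was outside that limit.

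TRIB3, a pseudokinase that ATF4 and CHOP induce and that in turn restrains ATF4, was the member set against these genes. Its brighter probe set read 7316.76 and 12956.7 on the control arrays against 10138.8 and 13252.9 on the rhSTIP1 arrays. The groups overlapped, the controls alone spanned 1.77-fold, and the difference was 0.25 ± 0.29. The sign rested on single arrays, at −0.16 without control array 1 and 0.66 without control array 2. The dimmer probe set of TRIB3 read 855.069 and 2073.46 on the control arrays against 1094.66 and 879.17 on the rhSTIP1 arrays, a difference of −0.44 with overlapping groups. The probe sets thus had opposite signs, and over their mean the difference was −0.09.

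PPP1R15A, also called GADD34, is the eIF2 phosphatase subunit that ends the response. Its signals were 1022.61 and 2792.02 on the control arrays against 657.106 and 1610.02 on the rhSTIP1 arrays. Array 2 of each group was above array 1 of either group, by 2.73-fold within the controls and 2.45-fold within the rhSTIP1 arrays, and the groups overlapped. The difference was −0.71 ± 0.54. It was −1.42 without control array 1, −1.34 without rhSTIP1 array 2, 0.01 without control array 2 and −0.07 without rhSTIP1 array 1. The other probe set followed the same order, with 702.581 and 1922.73 against 431.144 and 947.086 and a difference of −0.85. Of the 5 genes with a pair of probe sets, PPP1R15A and SESN2 ranked the 4 arrays in the same order by either of them.

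ASNS makes asparagine and is a classical target of ATF4 through the element printed above. Its main probe set read 4822.94 and 7215.28 on the control arrays against 6863.22 and 5038.3 on the rhSTIP1 arrays. The treated arrays lay between the controls, and the difference was −0.0046 ± 0.27. The members with the C/EBP-ATF core in the window, CHAC1 and ASNS, had differences of −2.60 and −0.0046. Whether the core bears on a difference was not tested. A second ASNS probe set was dim, at 8.638 and 86.5 on the control arrays against 7.709 and 17.4 on the rhSTIP1 arrays, with a mean under the 69.4 that a gene needed to be tested.

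STC2, which encodes a secreted glycoprotein that the stress response induces, gave values that depended on the probe set. The brighter had 226.57 and 214.438 on the control arrays against 190.253 and 222.335 on the rhSTIP1 arrays, overlapping groups with a difference of −0.09 ± 0.28. The dimmer had 129.36 and 107.348 on the control arrays against 8.313 and 16.4 on the rhSTIP1 arrays, both treated arrays far below both controls, a difference of −2.25. The mean signal of that probe set, 65.4, was just under the limit of 69.4, and no detection calls were used here, so its treated values could not be told from background. With the mean of both probe sets the gene had a difference of −1.17 ± 0.26, so its place among the members that were lower rested on that choice.

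**Figure D2:**
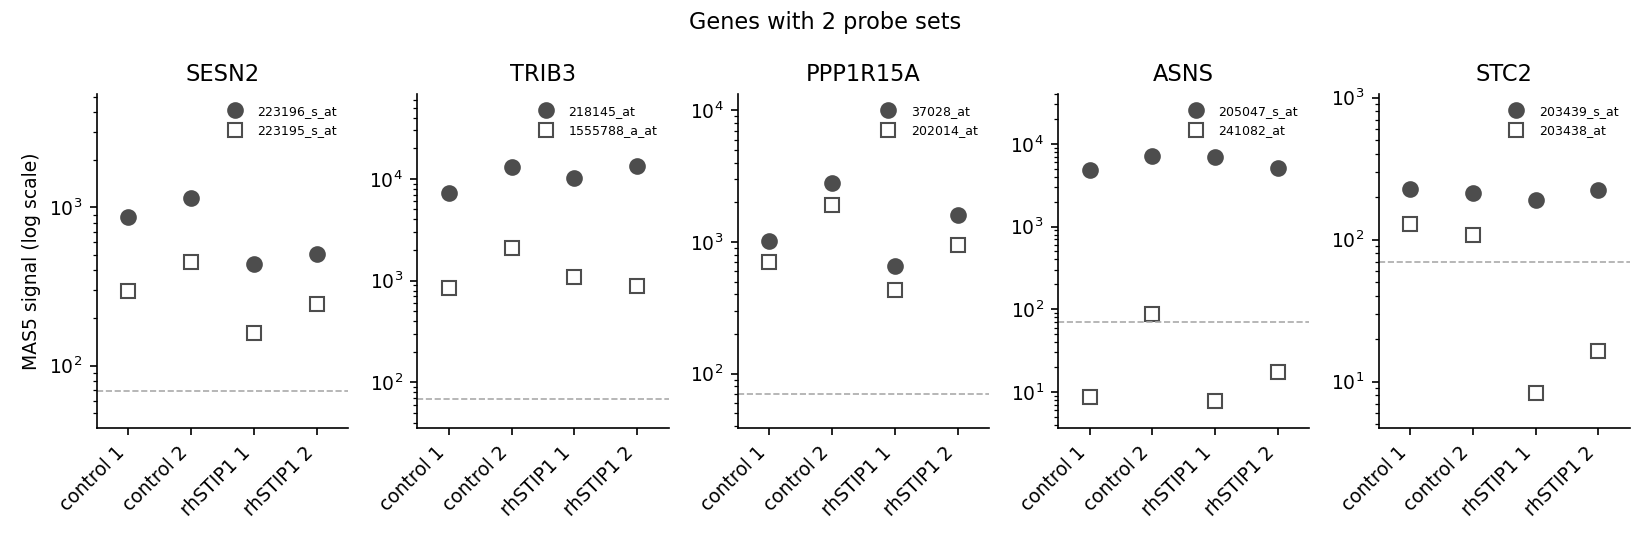
MAS5 signal on a log axis for the 5 members with a pair of probe sets on each array, the brighter as filled circles and the dimmer as open squares, with a dashed line at the signal of 69.4 needed for testing. The probe sets of SESN2 and PPP1R15A run in parallel, those of TRIB3 and STC2 part on the rhSTIP1 arrays, and the dimmer ones of ASNS and STC2 reach below the line.

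In all, both rhSTIP1 arrays lay below both controls for 5 of the 10 members and above both for 0. Over all genes tested this held for 14.9% in the lower and 14% in the higher direction. With a difference of at least 1.5-fold besides, which is called separated here, 4 members were lower and 0 higher, against 3.79% lower and 1.9% higher over all genes. Since this comparison chose the members, nothing is read from these counts. Over all genes, 66.6% of those separated were lower, a share that was 51.8% after median centring and 59.5% after quantile normalization, and the same 4 members were separated lower under both. Over all 12296 genes the median difference was 0.02 with quartiles of −0.17 and 0.18.

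**Figure D3:**
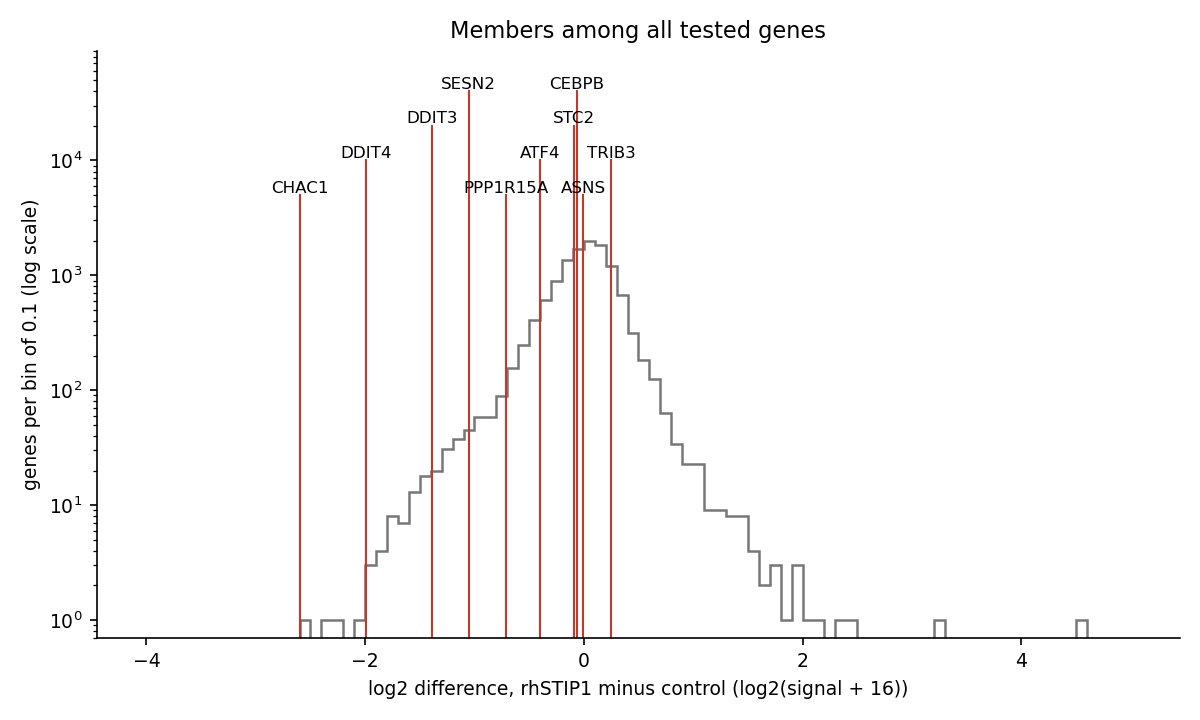
Number of tested genes per bin of 0.1 of the log2 difference (rhSTIP1 minus control, log count axis), with a red line at each of the 10 members; the height of a line carries no value. CHAC1 at −2.60 and DDIT4 at −1.99 stand in the lower tail, DDIT3 and SESN2 at −1.39 and −1.05 on its slope, and TRIB3 at 0.25 on the higher side.

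By limma's test adjusted over all genes with the Benjamini-Hochberg method, 0 of the 12296 genes passed at 0.05. With the replicate number as a block 247 were called, but the labels do not say that a number marks a pairing. The fit without a block is the one used here. In it an unadjusted p under 0.05 was given to 452 genes, or 3.68%, of which 324 were lower and 128 higher. The genes around the members were therefore described by their values and by separation. Of 159 other genes of the pathway and its surroundings, 153 were matched to a probe set and 142 entered the test. Among these 0 passed, 2 were separated lower and 3 higher, and the median difference was 0.08, beside 0.02 over all genes. An unadjusted p under 0.05 was given to 2 lower and 2 higher genes. Over all genes 3.79% were separated lower and 1.9% higher, so lists of 9 to 26 tested genes would hold few or none at those shares. A count of 0 in a list is therefore not read as a result.

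The kinases, phosphatase and exchange factor that set eIF2 activity lay upstream of ATF4 and gave 0 separated genes among 20 tested, with a median of 0.09. EIF2AK3, the kinase PERK of the endoplasmic reticulum, had 1266.12 and 1519.57 on the control arrays against 1830.54 and 1902.38 on the rhSTIP1 arrays, a difference of 0.42 ± 0.23. Its treated arrays were both above the controls, but by less than 1.5-fold. DNAJC3, an inhibitor of these kinases, had 0.52 ± 0.27, PPP1CB, a catalytic phosphatase subunit, 0.30 ± 0.21, and NCK1, an adaptor that acts on PERK, −0.42 ± 0.22.

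The bZIP partners and relatives of ATF4 and CHOP likewise gave 0 separated among 16 tested, with a median of 0.11. ATF3, another stress factor that ATF4 induces, had 1230.02 and 2316.23 on the control arrays against 2204.01 and 2590.67 on the rhSTIP1 arrays. Its groups overlapped and its difference was 0.50 ± 0.33. CREB1 had −0.51 ± 0.26, JDP2 −0.32 ± 0.28 and BATF3 0.34 ± 0.26.

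Among the other stress and signalling targets of ATF4 and CHOP 2 of 20 tested genes were separated, both lower, beside 3.79% lower over all genes. The median was −0.12. PMAIP1, the proapoptotic protein NOXA, had 6659.48 and 7235.84 on the control arrays against 3232.5 and 4877.12 on the rhSTIP1 arrays, a difference of −0.80 ± 0.25 with an adjusted p of 0.968 by limma. INHBE, an inhibin subunit, had 992.334 and 1358.22 on the control arrays against 869.364 and 676.284 on the rhSTIP1 arrays, a difference of −0.59 ± 0.27. At 1.504-fold, INHBE was just past the 1.5-fold limit of separation. PMAIP1 had −0.51 when rhSTIP1 array 1 was left out and −1.10 when array 2 was, and INHBE had −0.81 when control array 1 was left out and −0.37 when array 2 was. Both genes were lower on each treated array than on either control, by less than CHAC1 or DDIT4. RIT1 had −0.37 ± 0.24, and VEGFA, the angiogenic growth factor, −0.34 ± 0.23 with overlapping groups.

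The amino acid arm, which shares its activator with the members, had 0 separated genes in any of its lists, beside 3.79% lower and 1.9% higher over all genes. With so few genes tested, this does not set the arm apart from the members, which were chosen by this comparison. Transporters had a median of −0.03 over 9 tested genes, from −0.44 for SLC38A2, which carries small neutral amino acids, to 0.36 for SLC7A5, which carries leucine. SLC7A11, which imports cystine for the glutathione that CHAC1 degrades, had 0.25 ± 0.17, and SLC1A4 had −0.40 ± 0.30. Amino acid and one-carbon enzymes had a median of 0.17 over 9 tested genes, with PSPH of serine synthesis at −0.47 ± 0.23, GOT1 at −0.53 ± 0.35, MTHFD2 at −0.21 ± 0.17 and ASS1 at 0.38 ± 0.22. Aminoacyl-tRNA synthetases had a median of 0.04 over 11 tested genes. Of these WARS1 had 0.36 ± 0.31, TARS1 −0.26 ± 0.23, IARS1 0.24 ± 0.29 and LARS1 0.21 ± 0.25, all with overlapping groups.

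**Figure D4:**
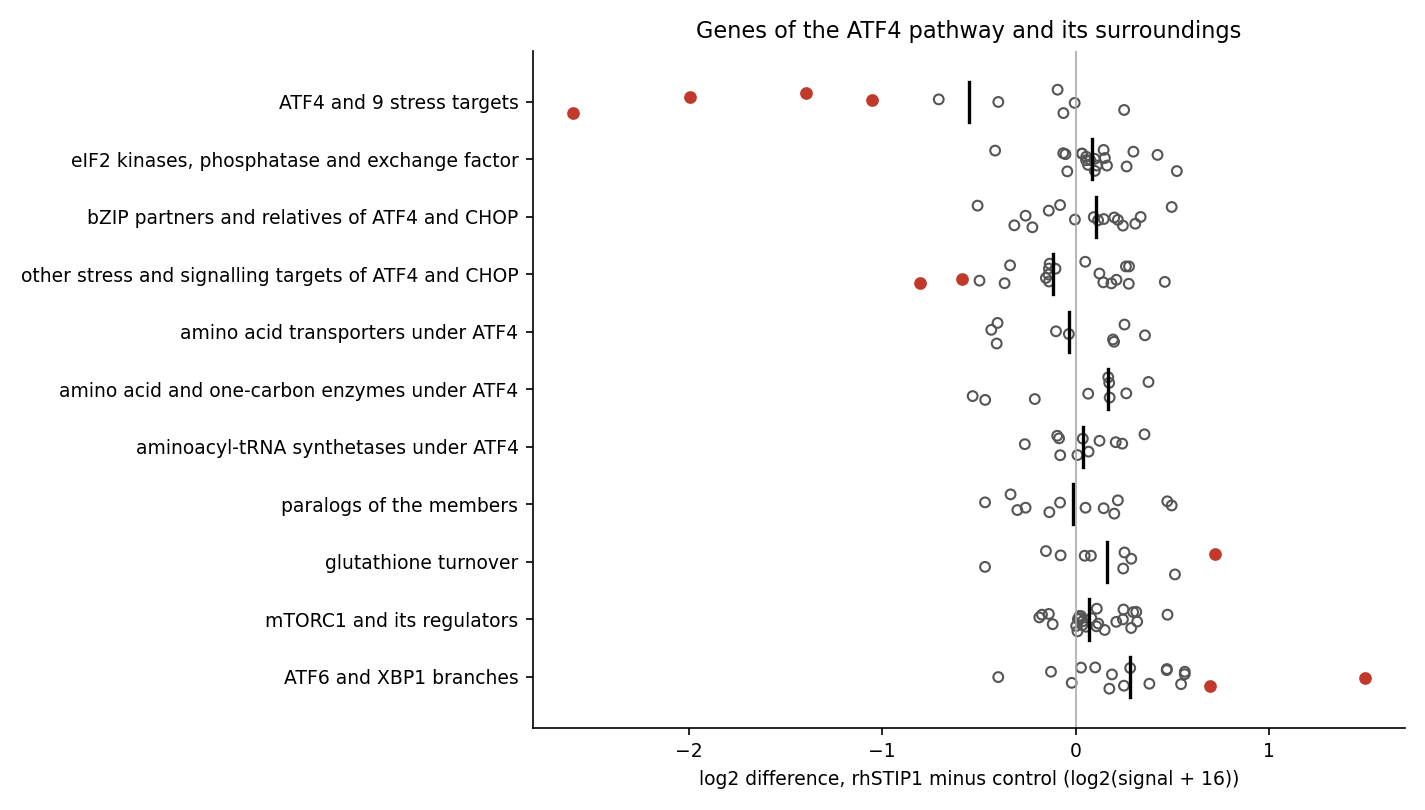
Log2 difference (rhSTIP1 minus control) of every tested gene, by list, with filled red points for genes separated by at least 1.5-fold, open points for the others and a black bar at the median; the vertical spread within a list carries no value. The 4 separated members, which were chosen by this comparison, reach from −2.60 to −1.05, so their place below the lists is not a result. The lists of other genes reach down to −0.80, and the ATF6 and XBP1 branches up to 1.497.

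Close relatives of the members gave 0 separated genes among 12 tested, with a median of −0.01. CHAC2, the other enzyme of its kind, had 1104.71 and 688.821 on the control arrays against 511.277 and 767.347 on the rhSTIP1 arrays, overlapping groups with −0.47 ± 0.32. DDIT4L, the relative of DDIT4, had −0.34 ± 0.34, and SESN1 had 0.05 ± 0.26. The third sestrin, SESN3, was too dim to be tested. TRIB1 was higher on both treated arrays, at 0.47 ± 0.25, while TRIB2 had −0.30 ± 0.27. PPP1R15B, which serves the phosphatase without stress, had 0.15 ± 0.23, ATF5 0.22 ± 0.23 and STC1 −0.14 ± 0.35. The C/EBP relatives had −0.08 ± 0.35 for CEBPA, 0.20 ± 0.19 for CEBPD and −0.26 ± 0.25 for CEBPG.

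The processes on which CHAC1, DDIT4 and SESN2 act were looked at in the same way. In glutathione turnover 1 of 10 tested genes was separated, GCLC, the catalytic subunit of the enzyme that starts glutathione synthesis. Its signals were 1938.55 and 3928.47 on the control arrays against 4710.78 and 4422.52 on the rhSTIP1 arrays, higher on both treated arrays by 0.72 ± 0.33, with controls that differed more than that. The difference of GCLC was 0.22 without control array 1 and 1.23 without control array 2. The partner subunit GCLM had 0.51 ± 0.30, and the median of the list was 0.16. For mTORC1 and its regulators the median was 0.07 over 26 tested genes, 22 of them above 0, beside 53.2% of all genes above 0, and 0 were separated. Such a lean was not particular to this list, as 16 of 20 genes of the eIF2 list and 95 of 142 of all lists together were above 0. RRAGD had 0.48 ± 0.31, AKT1S1 0.32 ± 0.24, RRAGB 0.31 ± 0.27 and LAMTOR5 0.30 ± 0.23.

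The ATF6 and XBP1 branches, the arms of the unfolded protein response that do not run through eIF2, had a median of 0.28 over 17 tested genes, 14 of them above 0 and 3 below, beside 46.8% of all genes below 0. Both separated genes were higher. DNAJB9, a chaperone of the endoplasmic reticulum, had 749.676 and 2196.51 on the control arrays against 4244.87 and 3150.01 on the rhSTIP1 arrays, a difference of 1.497 ± 0.46. Its controls lay far apart, and the difference was 0.73 without control array 1 and 2.26 without control array 2. SEC24D, a coat protein of export vesicles, had 660.299 and 835.291 on the control arrays against 1216.74 and 1205.69 on the rhSTIP1 arrays, a difference of 0.69 ± 0.24. MANF had 0.56 ± 0.26 and SEC61B 0.47 ± 0.24. HSPA5 had 10939.4 and 23543 on the control arrays against 21772.7 and 25214.3 on the rhSTIP1 arrays, a difference of 0.55 ± 0.33. The groups of HSPA5 and SEC61B overlapped, and for both, as for DNAJB9, control array 1 was the lowest array. Except for HSPA5, the genes named here had the smallest unadjusted p of their list by limma. DDIT3 and CHAC1 were chosen because they were lower in this comparison, so the opposite signs of these genes are not read as a result. No test compared the branches.

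The genes whose profile over the 4 arrays was most like that of a lower member were found by the Euclidean distance between log2 profiles centred on their means. Other members were left out, as were genes with code names, such as those of a locus, open reading frame, clone or antisense transcript. Nearest to CHAC1 were HJURP, which loads centromeric histone, at a distance of 0.67, the transcription factor E2F8 at 0.82 and the kinetochore protein NDC80 at 1.02. Nearest to DDIT3 were the bZIP factor NFIL3 at 0.31, SLC39A5 at 0.31 and ZNF134 at 0.36. DDIT4 was most like NEURL3 at 0.48, SPATA32 at 0.51 and SKA1 at 0.64. SESN2 had closer neighbours, TEDC2 at 0.10, RIBC2 at 0.13 and ZNF134 at 0.13. Genes with a difference like that of SESN2 were also more numerous, with 45 in its bin of 0.1 against 1, CHAC1 itself, in the bin of CHAC1. With 4 arrays these distances describe only the arrays at hand.

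Of 9 epithelial and SKOV3 markers 8 were at the tested level, led by ERBB2 with a mean signal of 12170, whereas MUC16 was at 8.98. Leukocyte markers reached that level for 0 of 7, and their summed signal was 220.5 and 233 on the control arrays against 172.5 and 314.2 on the rhSTIP1 arrays. Fibroblast markers did so for 3 of 6 (sums from 327.2 to 602.5) and endothelial markers for 1 of 5 (sums from 226.8 to 361.2), none with a mean above 208.2. Median signals ran from 65.98 to 79.18 over the arrays, and Pearson correlations between arrays over the tested genes from 0.952 to 0.979.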

How the data were processed

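The authors deposited linear intensities, 1 for each probe set and array. The submitters' processing notes name MAS5 and version 1.1 of Affymetrix Expression Console. MAS5 scales each array to a common target, and the mean signal trimmed by 2% at each end was 500.1 on every array. Dim MAS5 signals vary widely, and no detection calls were used here. Genes were named through the platform annotation; 41091 of 54613 probe sets had exactly 1 symbol, 1801 had several and 11721 none. Each gene was represented by its brightest probe set and tested where the mean signal over the 4 arrays reached 69.4, the median over probe sets, which kept 12296 of 19775 genes. The model was limma 3.58.1 (lmFit, eBayes with an intensity trend; R 4.3.3) on log2(signal + 16); tests were two-sided and adjusted by Benjamini-Hochberg. The model added 5.56 degrees of freedom to the 2 of each gene. An exact two-sided permutation test of 2 arrays against 2 cannot give a p below 0.333. The number of arrays limits the precision.

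The members and lists were chosen with earlier results of these data known. Named genes were the members and their relatives, up to 4 genes of each list with the smallest unadjusted p, and the 3 genes nearest to each of CHAC1, DDIT3, DDIT4 and SESN2, leaving out members and genes with code names. HSPA5 was named outside this rule. The steps were tested on simulated data. Alternatives covered the pseudocount, the filter, scaling, probe sets, eBayes, the replicate number as a block and leaving out each array. Promoters were RefSeq's, and all 10 members were matched by symbol.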

Additional observations from a re-analysis of the deposited data

How the results depend on the processing

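With 1 array left out, which in groups of 2 moves a difference by a fixed share of the gap between replicates, CHAC1 ran from −2.75 to −2.45, DDIT3 from −1.71 to −1.08, DDIT4 from −2.74 to −1.25 and SESN2 from −1.24 to −0.86. ATF4 had −0.34 with median centring and −0.48 with quantile normalization, beyond the very small spread of its arrays. With the mean of all probe sets ASNS had −0.42 and STC2 −1.17, because a dim probe set then counts as much as a bright one. STC2 was not tested with the filter at the 70th percentile, since its mean signal was under that limit.

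The model called 0 genes, 1 with the filter at the 70th percentile and 0 to 6 with 1 array left out (3 without control array 1 and 6 without control array 2), where the single array left in a group is taken to vary as the other group does. With the replicate number as a block it called 247. Deviations of same-numbered arrays from their group means correlated at 0.36, but nothing in the labels says that a number marks a shared culture or day. The block cannot change a difference in this balanced design. It changed the standard errors, from 0.54 to 0.20 for PPP1R15A, from 0.43 to 0.21 for DDIT4 and from 0.28 to 0.17 for DDIT3. Between same-numbered arrays PPP1R15A differed by −0.63 and −0.79. Separated genes numbered 700, 2087 without a filter, 424 with the 70th percentile and 1062 to 1979 when 1 array was left out and separation needed fewer values.

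For the other pathway genes the median of 0.08 was 0.14 with median centring and −0.012 (without control array 1) to 0.16 (without control array 2) with 1 array left out. Median centring shifts the difference of every gene alike, and the median over all genes went from 0.02 to 0.076. Those separated lower numbered 2, 1 with the pseudocount of 64, with median centring and with quantile normalization, 4 without a filter and with the mean of probe sets, and 5 to 6 with 1 array left out. Those separated higher numbered 3, 5 with median centring and with the mean of probe sets, and 2 to 21 with 1 array left out. Apart from this common shift by centring, the cause of these changes was not tested. Signals near background limit the dimmer probe sets of ASNS and STC2.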
